A study of Homo sapiens with 18 samples.

Results

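This report covers 43 genes of glycolysis and of the transcriptional response to low oxygen, chosen by gene symbol from the 57773 genes of the count table. All 43 were found in the table. The libraries were bulk RNA-seq of A549 and H1299, established human non-small cell lung cancer lines, each carrying a control hairpin (shcon) or 1 of 2 short hairpin RNAs against PPP2R2A (shPPP2R2A-1, shPPP2R2A-2), the gene for the B55α regulatory subunit of the phosphatase PP2A. Each of the 6 groups held 3 libraries, 18 in all. The question was which pathways change when PPP2R2A is knocked down (KD). All groups were grown in DMEM with serum under CO2, and the labels name no change in oxygen. The study describes its KD cells elsewhere as pooled populations, but the labels do not say so for these libraries, nor whether the 3 libraries of a group came from separate cultures, so p-values here speak only of how far these libraries scatter, and that scatter may be technical. A549 carries a deletion of CDKN2A and MTAP.

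In glycolysis, glucose enters the cell through SLC2A transporters and is split to pyruvate, which lactate dehydrogenase turns into lactate when it is not burned in mitochondria. Cells short of oxygen raise this flux through the transcription factors HIF-1α (HIF1A) and HIF-2α (EPAS1), which in the presence of oxygen are marked for destruction by the EGLN prolyl hydroxylases and are therefore regulated mostly as proteins rather than as mRNA. HIF binds a short DNA element with the core ACGTG or GCGTG and raises genes for glucose uptake, glycolysis, angiogenesis, pH control, mitophagy and collagen modification. Lung cancer cells often run this programme even with oxygen at hand.

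Total counts ranged from 35.7 to 69.3 M per library, and levels below are CPM, counts scaled to the TMM-adjusted library total. PPP2R2A fell in all 4 comparisons with shcon, by 2.98 and 2.47 on the log2 scale in A549 (edgeR adjusted p = 0.000247 and 0.000303) and by 3.52 and 2.45 in H1299 (edgeR adjusted p = 0.000137 and 0.0017). In H1299 the 2 hairpins also differed in depth of KD, with PPP2R2A 1.08 log2 units higher under shPPP2R2A-2 than under shPPP2R2A-1 (edgeR adjusted p = 0.0073). One library went against its label in part. The library labelled A549 shPPP2R2A-2 replicate 1 held CDKN2A at 1.23 CPM and MTAP at 2.38 CPM. A set of 13 genes, these among them, was above 20 CPM in every H1299 library and under 0.1 CPM in every A549 shcon and shPPP2R2A-1 library, on unscaled totals. Over this set the library reached 1.59% of the H1299 level, against 0.0221% and 0.0203% in shPPP2R2A-2 replicates 2 and 3. The other A549 libraries were low in the set by the rule that chose it, and the thresholds were set with the data seen. Markers of other cells were low: the sum of 5 leukocyte markers was 3.86 to 14.7 CPM in A549, and the sum of 5 fibroblast markers, mostly COL1A1, was 9.37 to 12.6 CPM in A549 shcon, 18.9 to 40.3 under shPPP2R2A-1 and 29.8 to 35.8 under shPPP2R2A-2. Their part in the results was not tested.

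In A549, some of the genes changed with PPP2R2A KD. With shPPP2R2A-1, 9 of 43 genes rose and 3 fell, against a background of 7.34% of all tested genes called higher and 6.34% called lower. With shPPP2R2A-2, 9 rose and 1 fell, against 10.6% and 9.94%. The median log2 fold change of the 43 genes was 0.259 and 0.265, beside -0.018 and -0.00569 over all genes tested. ADM, ANGPTL4, PFKFB4, LOX and P4HA2 were called higher in each of these comparisons, which share their shcon libraries. Among them only ADM kept its shPPP2R2A-2 call without shPPP2R2A-2 replicate 1, the library with H1299 signal. With the replicate number as a block, the genes called higher with shPPP2R2A-2 went from 9 to 6. ANGPTL4, PFKFB4 and LOX were those lost (edgeR adjusted p = 0.0909, 0.0794 and 0.0874). The numbers did not pair these libraries, with same-number correlations of -0.0908 to 0.261, so this block rests on a shared number only. In bulk RNA a higher level in every cell cannot be told apart from a change in the number of cells that express the gene.

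Promoters were picked from the genes called higher with both hairpins in A549, so the choice followed the calls. Of these genes, ADM, ANGPTL4, LOX and PFKFB4 carry the core of the HIF element and are shown, and P4HA2 does not and is left out. The promoter is the 300 bases from 250 before to 50 after the RefSeq start (GRCh38.p14, while the counts were made on GRCh37). Each sequence is written 5′ to 3′ along the gene, with ACGTG or GCGTG, on either strand, in capitals. The windows are chr11:10304823-10305122 (plus strand) for ADM, chr19:8363905-8364204 (plus) for ANGPTL4, chr5:122078210-122078509 (minus) for LOX and chr3:48556754-48557053 (minus) for PFKFB4.
ADM: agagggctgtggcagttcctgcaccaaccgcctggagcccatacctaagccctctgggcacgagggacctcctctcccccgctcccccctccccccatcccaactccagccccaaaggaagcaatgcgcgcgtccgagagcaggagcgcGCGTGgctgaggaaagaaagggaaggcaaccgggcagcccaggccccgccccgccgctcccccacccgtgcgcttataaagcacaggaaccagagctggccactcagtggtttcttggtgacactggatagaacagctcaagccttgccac
ANGPTL4: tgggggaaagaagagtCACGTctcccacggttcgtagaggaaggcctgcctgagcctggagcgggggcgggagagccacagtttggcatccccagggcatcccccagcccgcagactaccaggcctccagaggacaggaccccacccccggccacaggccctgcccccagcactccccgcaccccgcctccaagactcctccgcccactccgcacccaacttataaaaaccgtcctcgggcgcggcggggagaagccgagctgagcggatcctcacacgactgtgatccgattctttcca
LOX: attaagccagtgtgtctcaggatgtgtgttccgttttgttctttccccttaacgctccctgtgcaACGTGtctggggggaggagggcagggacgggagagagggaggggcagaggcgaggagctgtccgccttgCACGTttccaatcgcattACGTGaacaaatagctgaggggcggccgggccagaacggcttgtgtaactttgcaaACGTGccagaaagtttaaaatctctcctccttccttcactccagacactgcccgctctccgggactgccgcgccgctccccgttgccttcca
PFKFB4: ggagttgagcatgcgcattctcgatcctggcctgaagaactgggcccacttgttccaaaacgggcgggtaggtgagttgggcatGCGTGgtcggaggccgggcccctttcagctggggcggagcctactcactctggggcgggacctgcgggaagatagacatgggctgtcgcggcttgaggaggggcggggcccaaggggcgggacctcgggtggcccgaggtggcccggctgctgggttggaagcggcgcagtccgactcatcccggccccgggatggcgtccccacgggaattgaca

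In LOX the core stands 4 times in the ACGTG form, at positions -185, -116, -98 and -42 from the start. The match at -116 is on the opposite strand and is read here as CACGT. ADM and PFKFB4 each hold 1 GCGTG, at -101 and -166, and ANGPTL4 holds 1 ACGTG on the opposite strand, read here as CACGT, at -234. The window of P4HA2 holds none. Promoters were matched for 39 of the 43 genes, and 29 of these (74.4%) held either form, beside 48.4% of 27305 promoters of the same length. ACGTG was found in 17 (43.6%), beside 21.6%. The palindrome CACGTG holds ACGTG on both strands. A match is a description of the letters and not a measured site.

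ADM, the gene for the vasodilator peptide adrenomedullin, was counted at 18.9, 32.5 and 17.3 CPM in A549 shcon, at 76.9, 109 and 251 CPM under shPPP2R2A-1 and at 82.5, 95.9 and 64.0 CPM under shPPP2R2A-2. Every KD library lay above every shcon library, and 1 shPPP2R2A-1 library stood well above the other two. On the log2 scale the change was 2.67 (SE 0.415, edgeR adjusted p = 0.00345) and 1.83 (SE 0.403, edgeR adjusted p = 0.00969).

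ANGPTL4, a secreted inhibitor of lipoprotein lipase, was at 14.6, 16.5 and 8.50 CPM in shcon, at 64.7, 50.7 and 170 CPM under shPPP2R2A-1 and at 34.4, 27.2 and 31.2 CPM under shPPP2R2A-2. The 3 groups did not overlap, and the same shPPP2R2A-1 library, replicate 3, was again the highest. The log2 fold change was 2.85 (SE 0.426, edgeR adjusted p = 0.00297) and 1.24 (SE 0.406, edgeR adjusted p = 0.0496). The shPPP2R2A-2 call was lost without any 1 of shcon replicates 1 and 3 and the 3 shPPP2R2A-2 libraries (adjusted p up to 0.17) and with RLE scaling (adjusted p = 0.051), while the shPPP2R2A-1 call held without any 1 library.

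PFKFB4, one of the bifunctional enzymes that make and break fructose 2,6-bisphosphate, the activator of phosphofructokinase, had the largest fold change of the 43 genes under shPPP2R2A-1 in A549. It was at 9.58, 10.2 and 5.82 CPM in shcon, at 45.9, 59.7 and 219 CPM under shPPP2R2A-1 and at 27.8, 31.4 and 17.6 CPM under shPPP2R2A-2. All KD libraries were above all shcon libraries, and shPPP2R2A-1 replicate 3 stood apart. The log2 fold change was 3.67 (SE 0.552, edgeR adjusted p = 0.00303) and 1.60 (SE 0.512, edgeR adjusted p = 0.0464). Leaving out 1 library at a time kept the shPPP2R2A-1 value between 2.62 and 4.04, but the shPPP2R2A-2 call was lost without any 1 of the shcon or shPPP2R2A-2 libraries (adjusted p up to 0.155) and in DESeq2 (adjusted p = 0.0611). Its relative PFKFB3, counted at 226 to 377 CPM in shcon and 171 to 252 CPM in the KD libraries, changed by -0.61 and -0.43 with no call (edgeR adjusted p = 0.0751 and 0.169), although the first was called by DESeq2 (adjusted p = 0.045) and with no filter (adjusted p = 0.0373). The mean log2 ratio of PFKFB4 to PFKFB3 counts was -5.16 in shcon, -1.23 under shPPP2R2A-1 and -3.16 under shPPP2R2A-2.

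LOX, lysyl oxidase, which crosslinks collagen and elastin, was low in A549: 0.129, 0.499 and 0.547 CPM in shcon, 3.30, 2.42 and 3.09 CPM under shPPP2R2A-1 and 3.42, 1.30 and 0.614 CPM under shPPP2R2A-2. The KD libraries were all above shcon, the lowest shPPP2R2A-2 library only just. The log2 fold change was 2.88 (SE 0.633, edgeR adjusted p = 0.0142) and 2.18 (SE 0.626, edgeR adjusted p = 0.0304). The highest shPPP2R2A-2 value is in the library with H1299 signal, and that share of the H1299 level would make up 13.2% of it. Without that library the shPPP2R2A-2 value was 1.31 (SE 0.558, edgeR adjusted p = 0.161), and the call was also lost without shcon replicate 1 or 3 or shPPP2R2A-2 replicate 2 (value up to 2.62).

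P4HA2, the α subunit of a prolyl 4-hydroxylase that stabilises collagen, was at 68.1, 53.8 and 51.6 CPM in shcon, at 122, 118 and 143 CPM under shPPP2R2A-1 and at 125, 77.7 and 80.6 CPM under shPPP2R2A-2. Both KD groups lay wholly above shcon. This gave a log2 fold change of 1.14 (SE 0.214, edgeR adjusted p = 0.00757) and 0.72 (SE 0.212, edgeR adjusted p = 0.0341). The shPPP2R2A-2 call was lost without shcon replicate 2 or 3 or shPPP2R2A-2 replicate 1, and without the last the value was 0.48 (SE 0.198, edgeR adjusted p = 0.144).

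**Figure D1:**
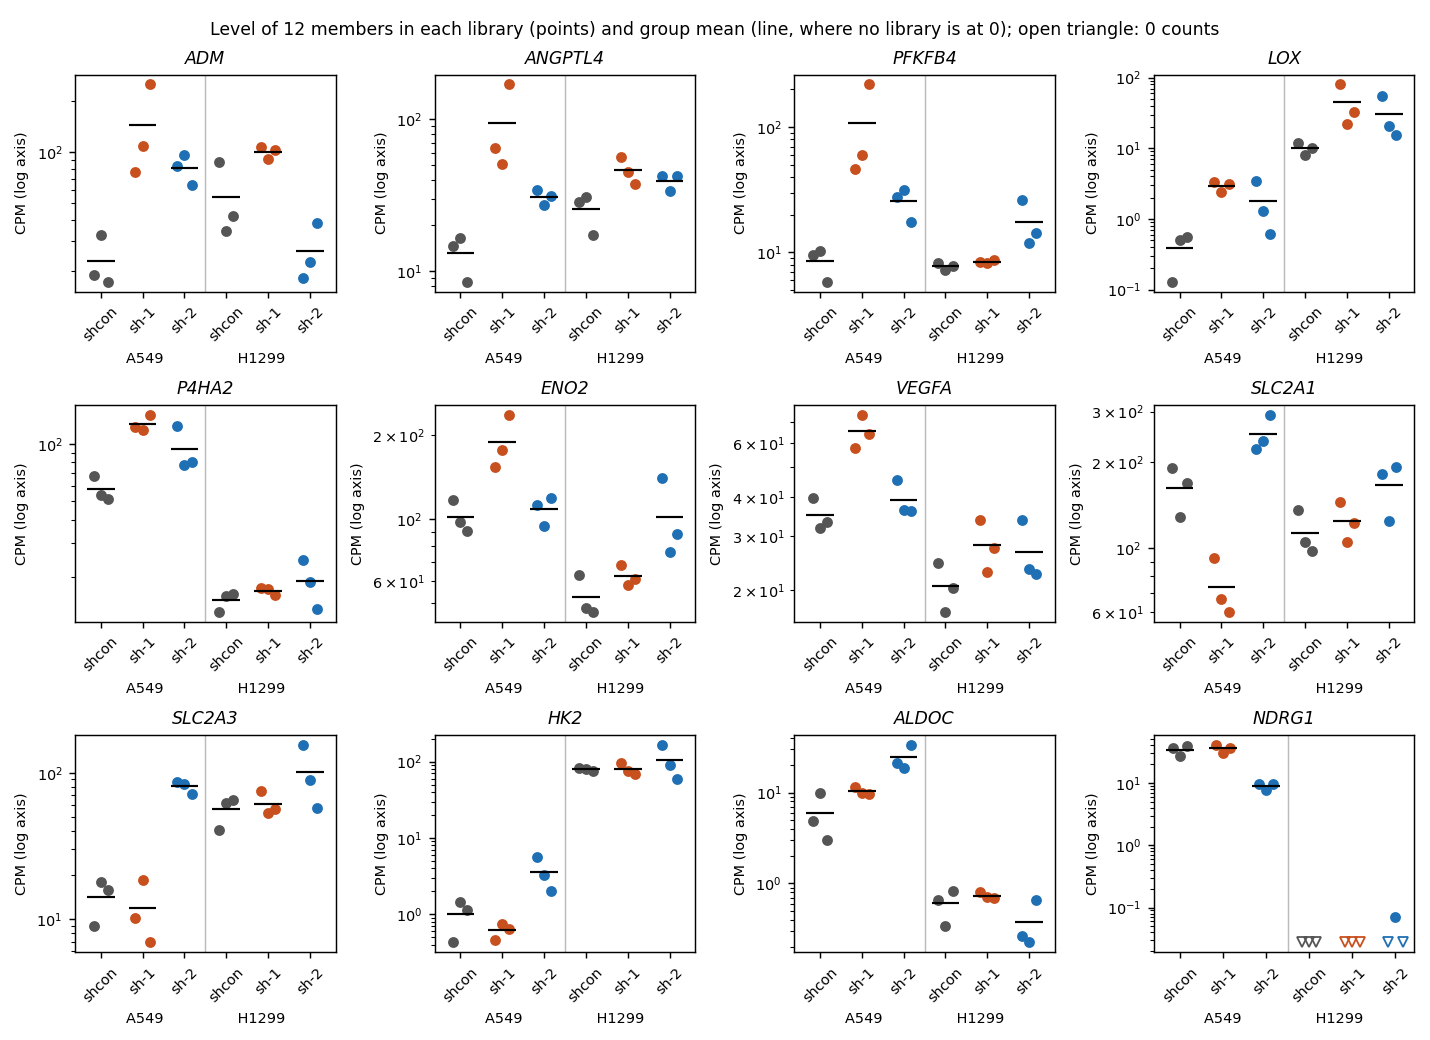
CPM of 12 genes in each of the 18 libraries on a log axis, by line and hairpin (grey shcon, orange shPPP2R2A-1, blue shPPP2R2A-2), with lines at group means and open triangles for libraries with 0 counts. In A549, ADM runs from 17.3 to 32.5 CPM in shcon and from 64.0 to 251 CPM in the KD libraries.

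Beside these genes, 4 rose with shPPP2R2A-1 and were not called with shPPP2R2A-2: ENO2, VEGFA, PLOD2 and KDM3A. ENO2, the neuronal isoform of enolase, was at 117, 97.6 and 90.6 CPM in shcon, at 154, 176 and 236 CPM under shPPP2R2A-1 and at 112, 94.6 and 119 CPM under shPPP2R2A-2. The shPPP2R2A-1 libraries stood above all others, and the other groups overlapped. Its log2 fold change was 0.89 (SE 0.198, edgeR adjusted p = 0.0149) and 0.11 (edgeR adjusted p = 0.739), and the first call was lost without shcon replicate 3 (edgeR adjusted p = 0.0675). VEGFA, the main growth factor of blood vessels, was at 39.9, 31.8 and 33.3 CPM in shcon, 57.8, 74.1 and 64.3 CPM under shPPP2R2A-1 and 45.3, 36.5 and 36.1 CPM under shPPP2R2A-2, again high with one hairpin. It changed by 0.90 (SE 0.178, edgeR adjusted p = 0.00952) and 0.18 (edgeR adjusted p = 0.502).

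PLOD2, a lysyl hydroxylase of collagen, was at 364, 163 and 259 CPM in shcon, 551, 444 and 485 CPM under shPPP2R2A-1 and 381, 331 and 348 CPM under shPPP2R2A-2, so shPPP2R2A-1 was clear of shcon and shPPP2R2A-2 was not. PLOD2 changed by 0.91 (SE 0.249, edgeR adjusted p = 0.0336) and 0.44 (edgeR adjusted p = 0.226). KDM3A, a demethylase of histone H3 lysine 9, was at 42.1, 35.2 and 37.2 CPM in shcon, 55.0, 64.8 and 56.7 CPM under shPPP2R2A-1 and 46.9, 41.6 and 43.2 CPM under shPPP2R2A-2. It changed by 0.62 (SE 0.157, edgeR adjusted p = 0.0241) and 0.21 (edgeR adjusted p = 0.358). The PLOD2 call was lost without shcon replicate 3 or any 1 shPPP2R2A-1 library (adjusted p up to 0.102), and the KDM3A call without shcon replicate 3 or shPPP2R2A-1 replicate 2 (adjusted p up to 0.0936) or with no filter on low counts (adjusted p = 0.05).

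A further 3 genes fell with shPPP2R2A-1 and were not called lower with shPPP2R2A-2. SLC2A1, the glucose transporter GLUT1, was at 191, 129 and 170 CPM in shcon, at 93.0, 66.8 and 60.0 CPM under shPPP2R2A-1 and at 223, 236 and 293 CPM under shPPP2R2A-2, so the groups stood apart with the hairpins on opposite sides of shcon. Its log2 fold change was -1.16 (SE 0.212, edgeR adjusted p = 0.00682) and 0.63 (SE 0.21, edgeR adjusted p = 0.0532), and the second was called higher by DESeq2 (adjusted p = 0.032), with no filter (0.0278) and with upper-quartile scaling (0.0196). CA12, a membrane carbonic anhydrase that sets extracellular pH, was at 526, 773 and 783 CPM in shcon, 325, 324 and 371 CPM under shPPP2R2A-1 and 510, 465 and 556 CPM under shPPP2R2A-2, and changed by -1.03 (SE 0.189, edgeR adjusted p = 0.00682) and -0.43 (edgeR adjusted p = 0.124).

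EGLN1, the main prolyl hydroxylase that marks HIF-α for destruction, was at 168, 172 and 229 CPM in shcon, 131, 125 and 83.8 CPM under shPPP2R2A-1 and 137, 170 and 226 CPM under shPPP2R2A-2. It was lower under shPPP2R2A-1 by a narrow margin: the log2 fold change was -0.75 (SE 0.228, edgeR adjusted p = 0.0487), and -0.09 (edgeR adjusted p = 0.819) with shPPP2R2A-2. The call was lost without shcon replicate 1 or 3, any 1 shPPP2R2A-1 library or shPPP2R2A-2 replicate 2 (adjusted p up to 0.179), and with upper-quartile scaling (adjusted p = 0.0572).

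With shPPP2R2A-2, 4 genes rose that were not called with shPPP2R2A-1. SLC2A3, the high-affinity glucose transporter GLUT3, was at 9.0, 17.9 and 15.8 CPM in shcon, at 10.2, 18.3 and 6.92 CPM under shPPP2R2A-1 and at 87.1, 84.4 and 71.2 CPM under shPPP2R2A-2, where all 3 libraries were far above the rest. SLC2A3 changed by -0.28 (edgeR adjusted p = 0.606) and 2.52 (SE 0.344, edgeR adjusted p = 0.00108). SLC2A14, a near-identical copy that can share its reads, was at 0.0332 to 0.0576 CPM in shcon, 0.318 to 0.753 under shPPP2R2A-1 and 1.82 to 6.10 under shPPP2R2A-2, so the split of reads between the pair is uncertain.

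ALDOC, the brain isoform of aldolase, was at 4.88, 9.98 and 3.03 CPM in shcon, 11.4, 9.93 and 9.74 CPM under shPPP2R2A-1 and 21.4, 18.7 and 33.7 CPM under shPPP2R2A-2. Only the shPPP2R2A-2 libraries were clear of shcon, with a log2 fold change of 2.06 (SE 0.383, edgeR adjusted p = 0.00444), beside 0.79 (SE 0.374, edgeR adjusted p = 0.176; 0.0289 with no filter) with shPPP2R2A-1. EGLN3, an EGLN hydroxylase that is itself a HIF target, was at 7.58, 14.4 and 11.5 CPM in shcon, 14.9, 11.1 and 10.5 CPM under shPPP2R2A-1 and 30.5, 21.5 and 25.1 CPM under shPPP2R2A-2. It changed by 0.12 (edgeR adjusted p = 0.795) and 1.21 (SE 0.259, edgeR adjusted p = 0.00836).

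HK2, the inducible hexokinase of tumours, was low in A549, at 0.430, 1.46 and 1.13 CPM in shcon, 0.465, 0.742 and 0.638 CPM under shPPP2R2A-1 and 5.65, 3.23 and 1.99 CPM under shPPP2R2A-2. Its shPPP2R2A-2 libraries were all above the others, and the log2 fold change was -0.72 (edgeR adjusted p = 0.367) and 1.86 (SE 0.489, edgeR adjusted p = 0.0207). The library with H1299 signal was the highest, and its share of the H1299 level would make up 24.9% of that value. Without it HK2 was at 1.40 (SE 0.505, edgeR adjusted p = 0.101), and the call was also lost without shcon replicate 1 or 3 or shPPP2R2A-2 replicate 2. For every other member apart from LOX that share was at most 4.11%.

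NDRG1, a stress-responsive gene raised by hypoxia and iron loss, was the only one of the 43 genes to fall with shPPP2R2A-2. It was at 36.6, 27.6 and 39.2 CPM in shcon, at 41.0, 30.4 and 36.6 CPM under shPPP2R2A-1 and at 9.65, 7.83 and 9.71 CPM under shPPP2R2A-2. Shcon and shPPP2R2A-1 overlapped, and the shPPP2R2A-2 libraries were far below both. The log2 fold change was 0.06 (edgeR adjusted p = 0.872) and -1.92 (SE 0.206, edgeR adjusted p = 0.000329). ADM, ALDOC, EGLN3, NDRG1 and SLC2A3 kept their shPPP2R2A-2 calls in every alternative run, including without the library with H1299 signal.

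**Figure D2:**
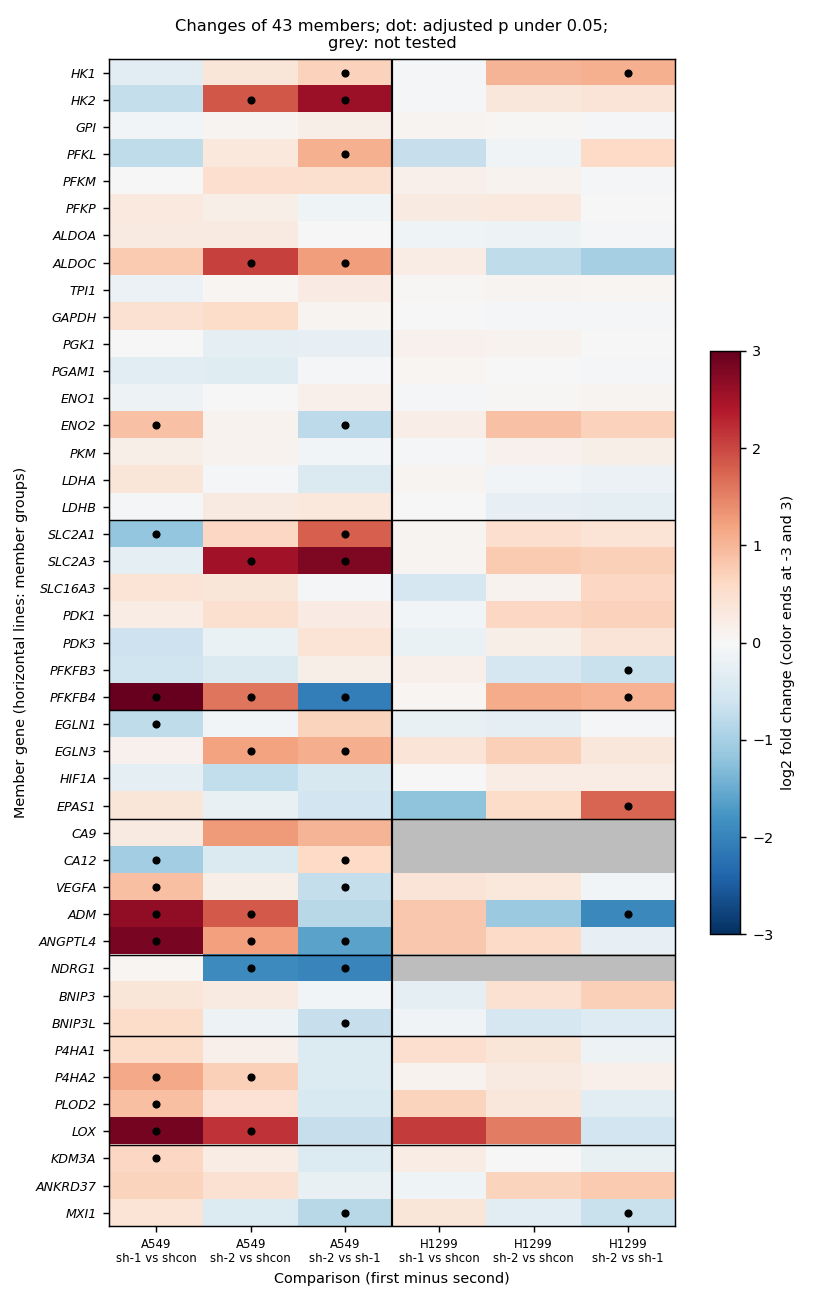
Log2 fold change of the 43 genes in the 6 hairpin comparisons (rows are genes by role, columns are comparisons, colour runs from -3 to 3), with a dot where the edgeR adjusted p was under 0.05 and grey where the gene was not tested. In A549, ADM, ANGPTL4, PFKFB4, LOX and P4HA2 hold a dot in each comparison with shcon. Other genes, such as SLC2A1 and SLC2A3, hold a dot in 1 of these and in the comparison of the hairpins. The H1299 comparisons with shcon hold none.

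Of 17 glycolytic enzymes in A549, 1 rose with shPPP2R2A-1 (ENO2) and 2 with shPPP2R2A-2 (ALDOC and HK2), shares near the 7.34% and 10.6% of all genes called higher, 0 fell, and the medians were -0.013 and 0.174. GAPDH, glyceraldehyde-3-phosphate dehydrogenase, ran from 7377 to 10463 CPM in shcon and from 10446 to 15673 CPM in the KD libraries, with changes of 0.46 and 0.55 that were not called (edgeR adjusted p = 0.18 and 0.0956). LDHA, which makes lactate, changed by 0.37 and -0.07, and LDHB, which favours the way back to pyruvate, by -0.04 and 0.27.

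For the pyruvate kinase PKM the values were 0.18 and 0.10, for the enolase ENO1 -0.15 and -0.01, for the aldolase ALDOA 0.28 and 0.27, and for the phosphoglycerate kinase PGK1 -0.01 and -0.26. The isomerases GPI and TPI1 were at -0.09 and 0.09 and at -0.19 and 0.07, and the mutase PGAM1 at -0.31 and -0.36. The hexokinase HK1 was at -0.33 and 0.36. Of the phosphofructokinase genes, PFKM was at 0.02 and 0.50 (edgeR adjusted p = 0.951 and 0.0832), PFKP at 0.30 and 0.17, and PFKL at -0.76 and 0.31 (edgeR adjusted p = 0.0557 and 0.386). None of these passed the edgeR test in either comparison. DESeq2 called PFKL lower with shPPP2R2A-1 (-0.76, DESeq2 adjusted p = 0.025), as did edgeR with no filter on low counts (adjusted p = 0.0095), and PFKM was called with shPPP2R2A-2 once the library with H1299 signal was left out (0.68, SE 0.182, edgeR adjusted p = 0.0376).

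The counts of the smaller groups that follow are to be read against all genes tested in A549. Of these, 7.34% were called higher and 6.34% lower under shPPP2R2A-1, and 10.6% and 9.94% under shPPP2R2A-2. Among transport and flux control genes, 1 of 7 was called higher (PFKFB4) and 1 lower (SLC2A1) under shPPP2R2A-1, and 2 were called higher (PFKFB4 and SLC2A3) under shPPP2R2A-2. The lactate exporter SLC16A3 was at 0.41 and 0.37, with no call. The pyruvate dehydrogenase kinases, which inhibit pyruvate dehydrogenase, were at 0.23 and 0.49 (PDK1) and -0.62 and -0.21 (PDK3), also with no call. Of 4 collagen modifiers, 3 rose with shPPP2R2A-1 and 2 with shPPP2R2A-2. The fourth, P4HA1, was at 0.54 (edgeR adjusted p = 0.0705; DESeq2 adjusted p = 0.044) and 0.14. Of the 5 genes of pH and secreted factors, 3 were higher and 1 lower under shPPP2R2A-1, and 2 were higher under the other hairpin. CA9, a carbonic anhydrase and classic HIF-1 target, ran from 0.988 to 5.74 CPM in shcon and changed by 0.26 and 1.29 (edgeR adjusted p = 0.835 and 0.209), and the second was called with no filter (edgeR adjusted p = 0.00228).

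The HIF genes themselves were not called in the edgeR test with all A549 libraries, TMM scaling and low counts filtered out. HIF1A was at 407, 187 and 512 CPM in shcon, 426, 305 and 195 CPM under shPPP2R2A-1 and 167, 194 and 293 CPM under shPPP2R2A-2, a wide spread within groups, with changes of -0.27 (SE 0.363) and -0.75 (SE 0.365, edgeR adjusted p = 0.167). With no filter HIF1A was called lower under shPPP2R2A-2 (-0.76, SE 0.214, edgeR adjusted p = 0.00503). EPAS1 ran from 98.0 to 318 CPM in shcon and changed by 0.36 and -0.22. Each was also called with the filter kept in at least 1 run without a single library. The lowest edgeR adjusted p in such runs was 0.0255 for HIF1A with shPPP2R2A-2 and 0.0416 for EPAS1 with shPPP2R2A-1. The mitophagy receptors BNIP3 and BNIP3L changed by 0.35 and 0.27 and by 0.54 and -0.15, ANKRD37, an ankyrin repeat gene raised by HIF-1, by 0.67 and 0.45, and MXI1, an antagonist of MYC, by 0.42 and -0.40, all without a call.

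A direct comparison of the hairpins in A549 showed that they differed in these genes. Under shPPP2R2A-2 against shPPP2R2A-1, 8 of 43 genes were higher and 7 lower, against a background of 9.54% and 8%. The median was -0.0565, beside -0.0237 over all genes. Higher under shPPP2R2A-2 were both hexokinases HK1 (0.68) and HK2 (2.57), PFKL (1.06), ALDOC (1.26), the glucose transporters SLC2A1 (1.79, SE 0.216, edgeR adjusted p = 0.000577) and SLC2A3 (2.80, SE 0.348, edgeR adjusted p = 0.000687), CA12 (0.60) and EGLN3 (1.10). Lower were ENO2 (-0.78), PFKFB4 (-2.07), VEGFA (-0.72), ANGPTL4 (-1.61), NDRG1 (-1.97, SE 0.207, edgeR adjusted p = 0.000277), BNIP3L (-0.69) and MXI1 (-0.82). ADM, at -0.84 (edgeR adjusted p = 0.159), and LOX, at -0.70 (edgeR adjusted p = 0.436), were not called, but ADM was with no filter (edgeR adjusted p = 0.00174).

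HK2, PFKL, SLC2A1, SLC2A3 and NDRG1 kept these calls without any 1 library. The other 10 lost theirs without at least 1. PFKFB4 and ANGPTL4 lost it without any 1 shPPP2R2A-2 library, ALDOC without any 1 library of either hairpin, EGLN3 without shPPP2R2A-1 replicate 2 or shPPP2R2A-2 replicate 1, ENO2 without shPPP2R2A-2 replicate 1 or 2, VEGFA without shPPP2R2A-1 replicate 2 or shPPP2R2A-2 replicate 2 or 3, and HK1 without replicate 2 or 3 of either hairpin. CA12 lost it without shcon replicate 3, shPPP2R2A-1 replicate 1 or 2 or any 1 shPPP2R2A-2 library. BNIP3L lost it without shcon replicate 3, shPPP2R2A-1 replicate 1 or 2 or shPPP2R2A-2 replicate 2 or 3. MXI1 lost it without any 1 shPPP2R2A-1 library or shPPP2R2A-2 replicate 2 or 3. Their highest adjusted p ran from 0.0616 for EGLN3 to 0.151 for MXI1, and PFKFB4 ran from -2.44 to -0.99 and ANGPTL4 from -1.92 to -0.85.

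In H1299, 0 of the 40 genes tested passed the threshold with either hairpin in edgeR. The background was low as well: 0.808% of all genes were called higher and 1.93% lower with shPPP2R2A-1, and 1.37% and 1.72% with shPPP2R2A-2. An unadjusted p under 0.05 was reached by 4 genes upward and 1 downward under shPPP2R2A-1, and by 7 and 2 under shPPP2R2A-2. The share of all genes at that unadjusted threshold was not counted. DESeq2 called 2 higher and 1 lower with shPPP2R2A-1 (ANGPTL4 0.83, LOX 2.12 and EPAS1 -1.18) and 4 higher and 2 lower with shPPP2R2A-2 (HK1 1.02, ENO2 0.90, PFKFB4 1.13, LOX 1.54, PFKFB3 -0.50 and ADM -1.11). DESeq2 also called more of the 15972 genes than edgeR did: 604 higher and 870 lower with shPPP2R2A-1, and 786 and 637 with shPPP2R2A-2. The medians were 0.0707 and 0.152, beside -0.0368 and -0.0104 over all genes. CA12, CA9 and NDRG1 were at or near 0 counts in H1299 and were not tested.

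LOX was at 12, 7.95 and 10.2 CPM in H1299 shcon, at 80.0, 22.2 and 32.3 CPM under shPPP2R2A-1 and at 54.7, 20.9 and 15.2 CPM under shPPP2R2A-2. All KD libraries were above shcon, with replicate 1 the highest under both hairpins. Its log2 fold change was 2.10 (SE 0.536, edgeR adjusted p = 0.0655) and 1.54 (SE 0.528, edgeR adjusted p = 0.148). With the replicate number as a block, LOX was the 1 gene called with shPPP2R2A-1, at 1.88 (SE 0.319, edgeR adjusted p = 0.034). The block is shared by all H1299 groups. The numbers paired shPPP2R2A-1 with shcon, but not shPPP2R2A-2 with shcon (same-number correlations -0.354 to 0.323).

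ADM was at 88.2, 34.3 and 42.2 CPM in H1299 shcon, at 107, 91.3 and 103 CPM under shPPP2R2A-1 and at 18.2, 22.7 and 38.4 CPM under shPPP2R2A-2. The hairpins lay on opposite sides of shcon, and the shPPP2R2A-2 range met that of shcon. The changes were 0.82 (SE 0.349, edgeR adjusted p = 0.223) and -1.12 (SE 0.352, edgeR adjusted p = 0.117). ANGPTL4 ran from 17.4 to 30.6 CPM in shcon, from 37.4 to 56.5 CPM under shPPP2R2A-1 and from 33.5 to 42.5 CPM under shPPP2R2A-2, without overlap with shcon, and changed by 0.80 and 0.56 (edgeR adjusted p = 0.103 and 0.243).

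PFKFB4 was at 8.19, 7.22 and 7.77 CPM in H1299 shcon, 8.34, 8.17 and 8.65 CPM under shPPP2R2A-1 and 26.2, 11.9 and 14.2 CPM under shPPP2R2A-2. Only the second hairpin stood clearly above shcon, with changes of 0.07 (edgeR adjusted p = 0.917) and 1.12 (SE 0.273, edgeR adjusted p = 0.0541). HK1 followed a like order, at 39.1, 27.7 and 28.9 CPM, 38.1, 27.7 and 29.3 CPM, and 92.0, 55.0 and 54.3 CPM, with changes of -0.06 and 1.01 (SE 0.245, edgeR adjusted p = 0.912 and 0.0527). P4HA2, called in A549 with both hairpins, changed by 0.11 and 0.27 in H1299 (edgeR adjusted p = 0.818 and 0.575).

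Between the hairpins in H1299, 3 of 40 genes were higher under shPPP2R2A-2 and 3 lower, against a background of 9.48% and 6.77%, with a median of 0.00828 beside 0.0343. HK1 (1.08, SE 0.245, edgeR adjusted p = 0.0147), PFKFB4 (1.05, SE 0.272, edgeR adjusted p = 0.0254) and EPAS1 (1.74, SE 0.394, edgeR adjusted p = 0.0144) were higher. ADM (-1.94, SE 0.36, edgeR adjusted p = 0.00609), PFKFB3 (-0.67, SE 0.151, edgeR adjusted p = 0.0135) and MXI1 (-0.67, SE 0.19, edgeR adjusted p = 0.0353) were lower. PFKFB4 was thus higher under shPPP2R2A-2 than under shPPP2R2A-1 in H1299 and lower in A549, a contrast between the lines that was not itself tested. With the replicate block, ENO2 was called as well (0.65, SE 0.167, edgeR adjusted p = 0.0384), giving 4 higher. Only ADM held without any 1 library: EPAS1 and PFKFB3 lost the call without shPPP2R2A-1 replicate 1 or 3 (adjusted p up to 0.0711 and 0.0633), HK1 without shPPP2R2A-1 replicate 2 or 3 (0.0719), PFKFB4 without any 1 shPPP2R2A-1 library or shPPP2R2A-2 replicate 1 (0.0907), and MXI1 without any 1 shPPP2R2A-1 library, shcon replicate 2 or shPPP2R2A-2 replicate 2 (0.125).

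The lines themselves differed far more than the hairpins. In shcon, 10 of 43 genes were higher in H1299 and 20 lower, against a background of 25.4% and 30.6%. The median was -0.429 with CA12, CA9 and NDRG1 set at their bounds and -0.36 without them, beside -0.0712 over all genes. The hexokinases were swapped: HK2 was at 0.430 to 1.46 CPM in A549 and 75.3 to 82.9 CPM in H1299 (log2 difference 6.29, SE 0.478, edgeR adjusted p = 3.16e-09), while HK1 was at 75.0 to 92.9 CPM in A549 and 27.7 to 39.1 CPM in H1299 (-1.42, SE 0.232, edgeR adjusted p = 4.78e-05). The mean log2 ratio of HK2 to HK1 counts went from -6.55 in A549 to 1.33 in H1299.

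Also higher in H1299 were LOX (4.64, SE 0.679, edgeR adjusted p = 1.31e-05), SLC2A3 (1.98, SE 0.366, edgeR adjusted p = 0.000163), PDK1 (1.31), ADM (1.26), MXI1 (1.03), ANGPTL4 (0.95), KDM3A (0.95), PFKM (0.94) and ENO1 (0.46). Lower in H1299 were the HIF genes, EPAS1 by the larger amount, with 98.0 to 318 CPM in A549 and 2.99 to 8.61 CPM in H1299 (-5.04, SE 0.44, edgeR adjusted p = 2.03e-08) and HIF1A at -1.29 (SE 0.342, edgeR adjusted p = 0.00369). EGLN3 (-4.79, SE 0.509, edgeR adjusted p = 2.63e-07) and EGLN1 (-0.85) were lower too, so all 4 genes of oxygen sensing were lower in H1299.

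ALDOC (-3.29), PFKFB3 (-2.47), PLOD2 (-2.26), P4HA2 (-1.94), PDK3 (-1.26), ENO2 (-0.95), VEGFA (-0.76), PKM (-0.69), PFKP (-0.54), SLC2A1 (-0.53), LDHA (-0.51) and GPI (-0.45) completed the tested lower genes. CA12 held 111984 counts over the A549 shcon libraries and 0 in H1299 shcon, at least 38800-fold lower against a floor of 3 counts over the group, and NDRG1 held 5509 and 0, at least 1910-fold lower. CA9 held 412 and 1, a CPM ratio of 428 with a 95% interval of 76.3 to 16900 for counting error only. GAPDH (0.13), PGK1 (0.07), LDHB (-0.08) and PFKFB4 (-0.14) were among those not called.

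Some of the smaller line differences depended on 1 library. ADM lost its call without A549 shcon replicate 3 or H1299 shcon replicate 1 (adjusted p up to 0.124), ANGPTL4 without those or H1299 shcon replicate 2 (0.129), and LDHA without A549 shcon replicate 1 or any 1 H1299 shcon library (0.235). ENO1 lost it without A549 shcon replicate 2 or 3, H1299 shcon replicate 1 or H1299 shPPP2R2A-1 replicate 3 (0.192), GPI without A549 shcon replicate 1 or 2, A549 shPPP2R2A-2 replicate 1 or H1299 shcon replicate 2 or 3 (0.151), and PFKP without A549 shcon replicate 1, A549 shPPP2R2A-2 replicate 1 or 3 or H1299 shcon replicate 2 or 3 (0.406). SLC2A1, at an adjusted p of 0.0456, lost it without any 1 of 11 libraries (up to 0.192), and kept it without A549 shcon replicate 2, A549 shPPP2R2A-1 replicate 1 or 3, H1299 shcon replicate 1, H1299 shPPP2R2A-1 replicate 1 or H1299 shPPP2R2A-2 replicate 2 or 3.

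**Figure D3:**
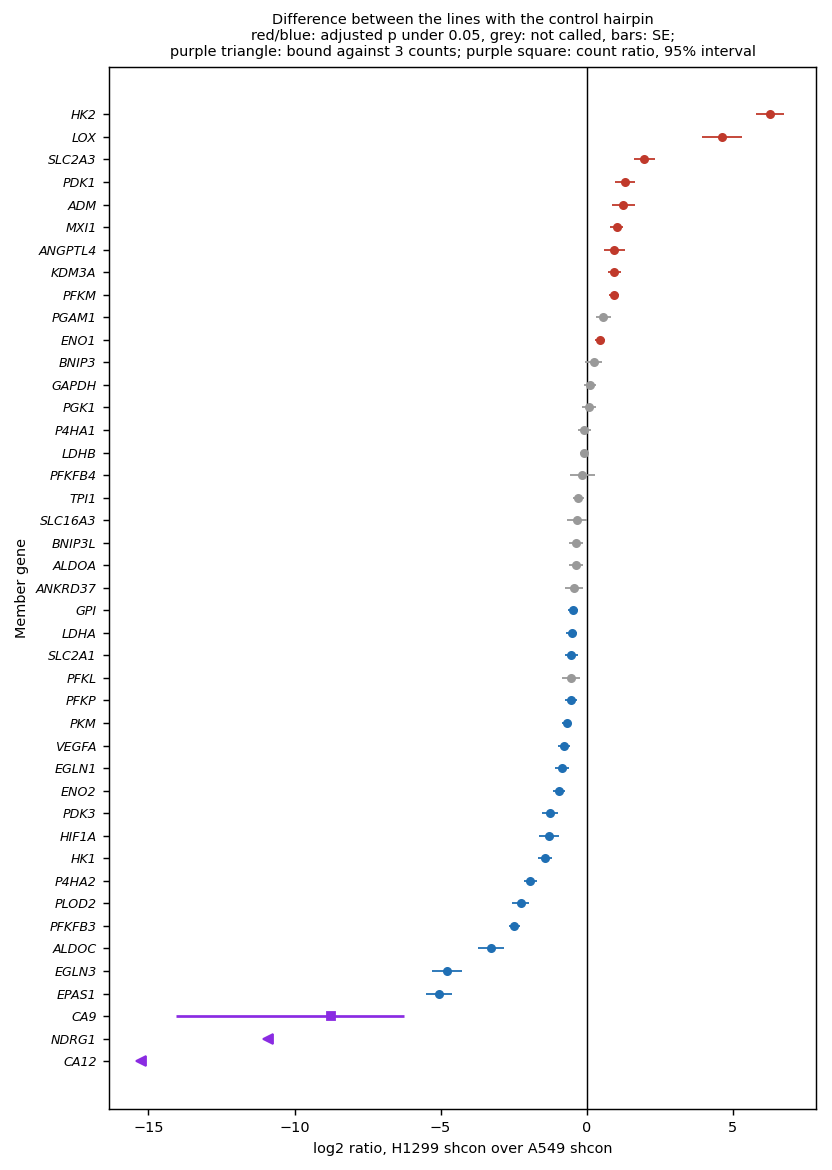
Log2 ratio of H1299 shcon to A549 shcon for each gene, with SE bars (red higher, blue lower, grey not called), triangles for the bounds of CA12 and NDRG1 and a square with its 95% interval for CA9. HK2 stands highest at 6.29, and EPAS1 at -5.04 is the lowest of the fitted values.

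The response to PPP2R2A KD differed between the lines for 4 genes when the difference itself was tested (the interaction of line and hairpin). For shPPP2R2A-1, 1 gene was called with a higher response in H1299 and 1 with a lower response, against a background of 0.287% and 0.807%; the median over the 40 genes tested in both lines was -0.0979, beside 0.0207. PFKFB4 rose by 3.67 in A549 and changed by 0.07 in H1299, a difference of -3.54 (SE 0.631, edgeR adjusted p = 0.0129) that lost its call only without A549 shcon replicate 3 (edgeR adjusted p = 0.0542). SLC2A1 fell by 1.16 in A549 and changed by 0.09 in H1299, a difference of 1.29 (SE 0.307, edgeR adjusted p = 0.0484) that lost its call without any 1 of 13 libraries (adjusted p up to 0.138) and kept it without A549 shcon replicate 2, A549 shPPP2R2A-1 replicate 1, H1299 shcon replicate 1 or H1299 shPPP2R2A-2 replicate 2 or 3. It was also lost with RLE scaling (adjusted p = 0.0516), upper-quartile scaling (0.0607) and the replicate block (0.0536). ANGPTL4, at -1.99 (edgeR adjusted p = 0.0669), did not pass in edgeR and did in DESeq2 (adjusted p = 0.00755), which also called ADM (0.0483) and P4HA2 (0.0492) lower. Of the 18827 genes, DESeq2 called 216 with a higher and 528 with a lower response in H1299.

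For shPPP2R2A-2, 0 genes had a higher and 2 a lower response in H1299, against 0.345% and 0.297%, with a median of -0.0253 beside 0.0972. At an unadjusted p under 0.05, 4 were higher, NDRG1 among them, and 4 lower, and DESeq2 called 3 lower, SLC2A3 beside ADM and ALDOC, and 1 higher, which is among CA12, CA9 and NDRG1, at or near 0 counts in H1299. Of the 18827 genes, DESeq2 called 340 higher and 332 lower, and the share at the unadjusted threshold was not counted. ADM rose by 1.83 in A549 and changed by -1.12 in H1299, a difference of -2.88 (SE 0.579, edgeR adjusted p = 0.0261). ALDOC rose by 2.06 in A549 and changed by -0.77 in H1299, where it was at 0.225 to 0.816 CPM in all groups, a difference of -2.79 (SE 0.622, edgeR adjusted p = 0.0458). The ADM call was lost without replicate 1 or 3 of A549 shcon, replicate 1 or 2 of A549 shPPP2R2A-2, H1299 shcon replicate 1 or H1299 shPPP2R2A-2 replicate 1 or 2 (adjusted p up to 0.0798). The ALDOC call was lost without any 1 of 15 libraries (up to 0.115) and kept without A549 shcon replicate 2, A549 shPPP2R2A-1 replicate 3 or H1299 shPPP2R2A-2 replicate 3. HK2 (-1.43) and SLC2A3 (-1.67), which rose in A549, did not pass (edgeR adjusted p = 0.256 and 0.124), although DESeq2 called SLC2A3 (adjusted p = 0.0295). With the replicate block the ADM and ALDOC calls were lost (edgeR adjusted p = 0.0596 and 0.0668).

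**Figure D4:**
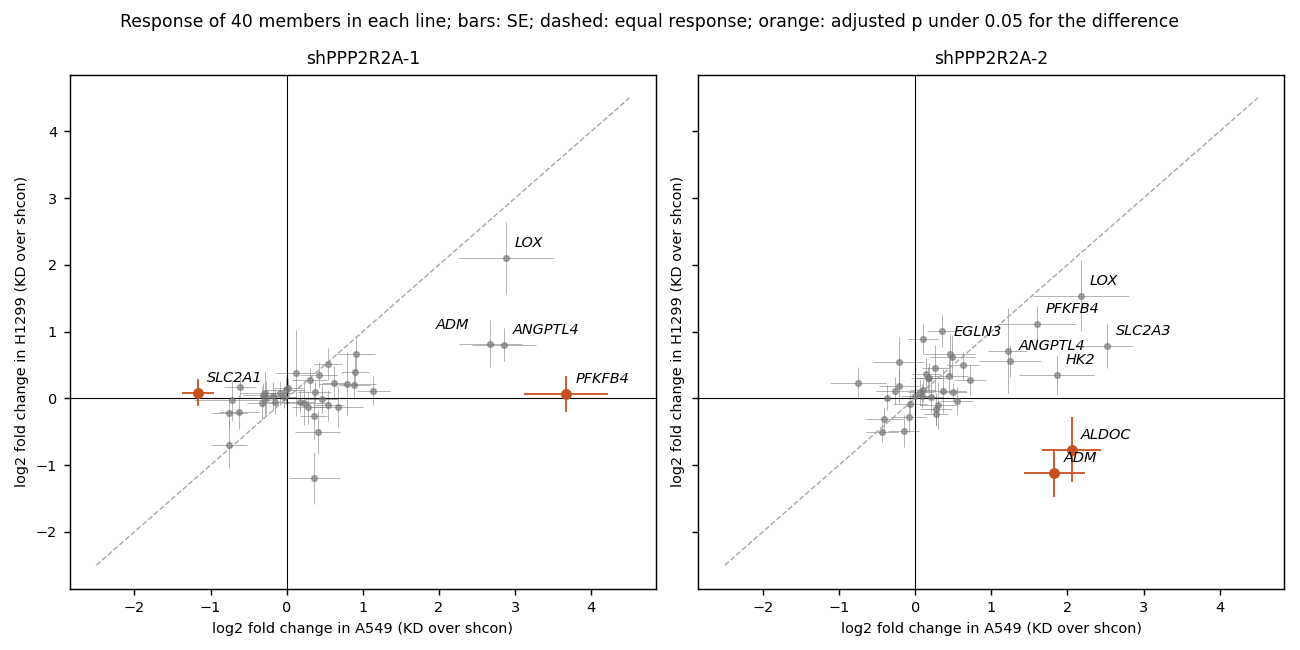
Log2 fold change against shcon in A549 (x axis) and H1299 (y axis) for the 40 genes tested in both lines, 1 panel per hairpin, with SE bars and a dashed line of equal response. Orange marks the 4 genes whose responses differed, such as PFKFB4 at 3.67 and 0.07 under shPPP2R2A-1.

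Related genes outside the 43 were counted by list, to be read against the shares of all genes called in A549, 7.34% higher and 6.34% lower with shPPP2R2A-1 and 10.6% and 9.94% with shPPP2R2A-2, and in H1299, 0.808% and 1.93%, then 1.37% and 1.72%. Of 27 other hypoxia targets tested in A549, 8 were called higher and 3 lower under shPPP2R2A-1, beside 9 and 3 under shPPP2R2A-2, with medians of 0.291 and 0.359. In H1299, of 26, 2 rose and 1 fell, then 1 rose and 1 fell, with medians of 0.233 and 0.238. Among them TFRC, the transferrin receptor, had a mean of 368.5 CPM in A549 shcon and 64.4 CPM under shPPP2R2A-2 (-2.51, SE 0.397, edgeR adjusted p = 0.00212), and it fell by 1.79 in H1299 with that hairpin (edgeR adjusted p = 0.00529). Of 13 other isoforms of glycolytic enzymes and glucose transporters, 3 were called higher under shPPP2R2A-1, and 5 higher with 1 lower under shPPP2R2A-2, in A549. ENO3, the muscle enolase, rose by 1.91 and 1.29 (edgeR adjusted p = 0.00365 and 0.0115), and SLC2A12 by 1.47 and 2.04 (edgeR adjusted p = 0.0215 and 0.00366).

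Of 7 pentose phosphate genes, 3 fell with shPPP2R2A-1 in A549, among them PGD (-0.87, edgeR adjusted p = 0.0188), and 1 rose with shPPP2R2A-2 (TALDO1, 0.82, edgeR adjusted p = 0.00904). Of 15 genes of pyruvate and lactate fate in A549, 1 rose and 2 fell with shPPP2R2A-1, then 0 rose and 3 fell with shPPP2R2A-2. In H1299, of 14, SLC16A1 alone was called with shPPP2R2A-1 (0.77, edgeR adjusted p = 0.0284). PDP2 alone was called there with shPPP2R2A-2 (-1.42, edgeR adjusted p = 0.0282), and it also fell in A549 with that hairpin (-1.31, edgeR adjusted p = 0.0204). Of 9 genes of gluconeogenesis and glycogen in A549, 1 and then 2 rose, among them the liver glycogen phosphorylase PYGL (0.93 and 0.60, edgeR adjusted p = 0.00709 and 0.0277). In H1299, of 8, only PYGB was called, lower with shPPP2R2A-2 (-1.03, edgeR adjusted p = 0.0139). Of 12 HIF regulators in A549, CITED2, which competes with HIF for its coactivators, rose with shPPP2R2A-1 (1.44, edgeR adjusted p = 0.00566) and 0 were called with shPPP2R2A-2, where the median was 0.00719. In H1299, 0 genes of the isoform, pentose phosphate and HIF regulator lists were called against shcon.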

How the data were processed

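Per the labels, the authors made stranded mRNA libraries (TruSeq), and the processing notes list STAR 2.7.3a, Bowtie2, HTSeq 0.11.2, Cufflinks 2.2.1, DESeq2, cutadapt 2.5 and FastQC 0.11.8 and the build GRCh37/hg19, with no role or order. Raw counts per gene, as deposited by the authors, were used throughout. A size-factor-normalized signal that the authors also deposited was not used. The table held 0 rows that name no gene and 0 value columns of no sample. The members and lists were chosen with earlier results of these data known. All 43 members and PPP2R2A are named, and from each other list at most 3 genes with the smallest adjusted p.

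Genes passing filterByExpr (17229 in A549, 15972 in H1299, 18827 in both lines) were tested with edgeR 4.0.16 (limma 3.58.1, R 4.3.3; TMM, robust quasi-likelihood, two-sided, Benjamini-Hochberg over all genes tested, threshold 0.05), each line alone, and both lines together for the line difference and the interaction. The 9 comparisons were recomputed with DESeq2 1.42.0, RLE and upper-quartile scaling, no filter, a replicate block and without each library. Same-numbered libraries deviated together in every pair for H1299 shPPP2R2A-1 with shcon (correlations 0.125 to 0.199) and with shPPP2R2A-2 (0.169 to 0.315), so there the block is given beside the results; the pairing comes from these data, not from the labels. Scripts were tested on simulated data. Count ratios used a pseudocount of 0.5. Figures used Python 3.11.15 and matplotlib 3.10.9. Intervals cover counting error only.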

Additional observations from a re-analysis of the deposited data

Results flagged for a closer look

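The response to PPP2R2A KD differed between the lines, by the interaction test in edgeR, for 4 genes. With shPPP2R2A-1 the H1299 response of PFKFB4 was lower than that of A549 by a log2 difference of -3.544 (adjusted p = 0.0129), and that of SLC2A1 was higher by 1.295 (adjusted p = 0.0484). With shPPP2R2A-2 the difference was -2.875 for ADM (adjusted p = 0.0261) and -2.786 for ALDOC (adjusted p = 0.0458). All 3 A549 libraries of each KD group concerned lay beyond all 3 shcon libraries in these genes. The SLC2A1 difference was not called with RLE or upper-quartile scaling, and with the replicate block only that of PFKFB4 was called.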

How the results depend on the processing

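Of 74 calls for members, 38 were kept in every alternative, 36 were lost in at least 1 and 0 changed sign. Counts of members called moved as follows, from the count given in the report. With DESeq2, A549 shPPP2R2A-1 lower went from 3 to 5, H1299 shPPP2R2A-1 from 0 to 2 higher and 1 lower, H1299 shPPP2R2A-2 from 0 to 4 higher and 2 lower, and the line differences in response to 4 lower (shPPP2R2A-1) and 1 higher (shPPP2R2A-2). With no filter, A549 lower calls were 5 and 2, H1299 shPPP2R2A-1 gave 4 higher and 1 lower, H1299 shPPP2R2A-2 gave 5 and 1, H1299 shPPP2R2A-2 against shPPP2R2A-1 gave 7 higher, and the response differences gave 4 lower, then 2 higher and 4 lower. H1299 shPPP2R2A-2 gave 1 higher with RLE and 2 with upper-quartile scaling, and the shPPP2R2A-1 response difference gave 0 higher with either. With the replicate block, A549 shPPP2R2A-2 against shPPP2R2A-1 gave 5 higher, H1299 gave 1 and 2 higher, the shPPP2R2A-1 response difference 0 higher, and the shPPP2R2A-2 response difference 0 lower. Over all genes the shPPP2R2A-1 response difference was called higher for 39 and lower for 218 with upper-quartile scaling, beside 54 and 152. The cause was not tested.

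The block rests on a shared number only in the other comparisons. In A549 the same-number correlations were -0.302 to 0.182 for shcon with shPPP2R2A-1, -0.0908 to 0.261 for shcon with shPPP2R2A-2 and -0.224 to -0.0136 between the hairpins, and in H1299 shcon with shPPP2R2A-2 they were -0.354 to 0.323, with 2 of 6 libraries closest to their own number. In H1299 the block also called HK1 (adjusted p = 0.0271) and ENO2 (adjusted p = 0.0466) with shPPP2R2A-2 in edgeR. In the comparisons where the numbers pair, it changed no call but those of LOX and ENO2 given in the report.

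Without 1 library, members called ranged from 6 to 10 higher and 2 to 4 lower (A549 shPPP2R2A-1), 4 to 11 and 1 to 3 (A549 shPPP2R2A-2; 5 without shcon replicate 1, 4 without shcon replicate 3, 5 without shPPP2R2A-2 replicate 1 or 2), 4 to 9 and 1 to 7 (A549 between hairpins), 0 to 1 and 0 to 0 (H1299 shPPP2R2A-1), 0 to 5 and 0 to 1 (H1299 shPPP2R2A-2; 5 and 1 without its replicate 3), 0 to 6 and 1 to 4 (H1299 between hairpins), 7 to 11 and 16 to 20 (lines), and for response differences 0 to 1 and 0 to 2, then 0 to 0 and 0 to 2. A library left out leaves 2 in its group, whose spread is pooled with the other groups.

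Over all genes, counts that moved by over 1.5 times were A549 shPPP2R2A-1 lower (1092; 1802 with DESeq2, 1820 with no filter, 721 with the block), H1299 shPPP2R2A-1 higher (129; 604 and 554 with the first 2) and lower (308; 870 and 827), H1299 shPPP2R2A-2 higher (219; 786 and 652) and lower (274; 637 and 517), H1299 between hairpins lower (1081; 1666 with DESeq2), and the response differences (54; 216, 374 and 32 with the block, and 152; 528 and 530 for shPPP2R2A-1; 65; 340, 473 and 38 with the block, and 56; 332 and 338 for shPPP2R2A-2). Low levels limit LOX and HK2 in A549, ALDOC and EGLN3 in H1299, and CA9 in both lines.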
